A study of Mus musculus with 15 samples.

Results

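The livers of mice given Gc337, an antisense oligonucleotide against Stk25, were compared with the livers of mice given resmetirom, both on a high-fat diet. The comparison takes the 3 libraries labelled HFD-337 (replicates 23, 26 and 27) and the 3 labelled HFD-Res (replicates 29, 30 and 34), which are 6 of the 15 liver libraries of the series, and all genes. The series describes a mouse model of fatty liver disease tied to metabolism (MASLD), brought on by high-fat feeding, in which STK25 was knocked down with the agent Gc337 or resmetirom was given. A high-fat group with neither agent in its label (HFD-NS, replicates 12, 13 and 16) is used below as the level without treatment, and the remaining groups (SD-NS and HFD-338) enter only the joint fit. Strain, sex, age, dose, route and length of treatment are not given in the sources used here, and the labels do not spell out NS or SD.

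STK25 is a kinase of the STE20 family that sits on hepatic lipid droplets, and its knockdown addresses lipid storage in hepatocytes. Resmetirom is an agonist of thyroid hormone receptor beta, the main thyroid hormone receptor of hepatocytes, which switches on genes of lipid synthesis, lipid burning, cholesterol uptake and bile acid synthesis. The comparison of the 2 groups shows which liver genes separate the 2 treatments, and the values in HFD-NS show on which side the gene moved. The tests of HFD-337 and of HFD-Res against HFD-NS share the HFD-NS libraries, so their values stand side by side here. They are not compared by overlap, apart from a list of named genes near the end, which is a description.

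Libraries of HFD-337 held 4681937, 8995337 and 5060839 counts and those of HFD-Res 4637933, 4173224 and 6814824. Levels are TMM-scaled CPM, read counts relative to the library's total, and values of libraries always follow the order of replicates 23, 26 and 27 for HFD-337, 29, 30 and 34 for HFD-Res and 12, 13 and 16 for HFD-NS. They are not scaled by gene length, so levels of different genes are not compared. A gene was called when edgeR's quasi-likelihood test gave a Benjamini-Hochberg adjusted p under 0.05, the q given below, and a positive log2 fold change means a higher level in HFD-337. The labels do not say whether libraries came from separate mice, so the tests measure the spread between these samples only. Of 13189 genes tested, 6283 (47.6%) were called, 3205 (24.3%) higher and 3078 (23.3%) lower in HFD-337. Of all genes tested, 44.7% were called with no overlap between the 2 groups' libraries. By 2-fold or more, 1154 (8.75%) were higher and 1080 (8.19%) lower, and with recomputed TPM 645 were higher. Against HFD-NS, 6220 genes (47.2%) were called in HFD-337, 24.4% higher and 22.8% lower, and 1709 (13%) in HFD-Res, 6.22% higher and 6.74% lower. With TPM recomputed from the counts the share of calls that were higher in HFD-337 was 39.3% in place of 51.0%, and the median log2 fold change moved by -0.10. All 6 libraries carried RNA of male animals, with 0 to 0.609 CPM of Xist and a sum of 239 to 281 CPM of 4 Y-linked genes. The markers of hepatocytes, 12 genes, summed to 104753 to 152334 CPM in HFD-337 and 99950 to 107448 in HFD-Res. In the first principal component, HFD-337 replicate 23 stood apart from its group (38.6 against 7.27 and 6.45).

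**Figure D1:**
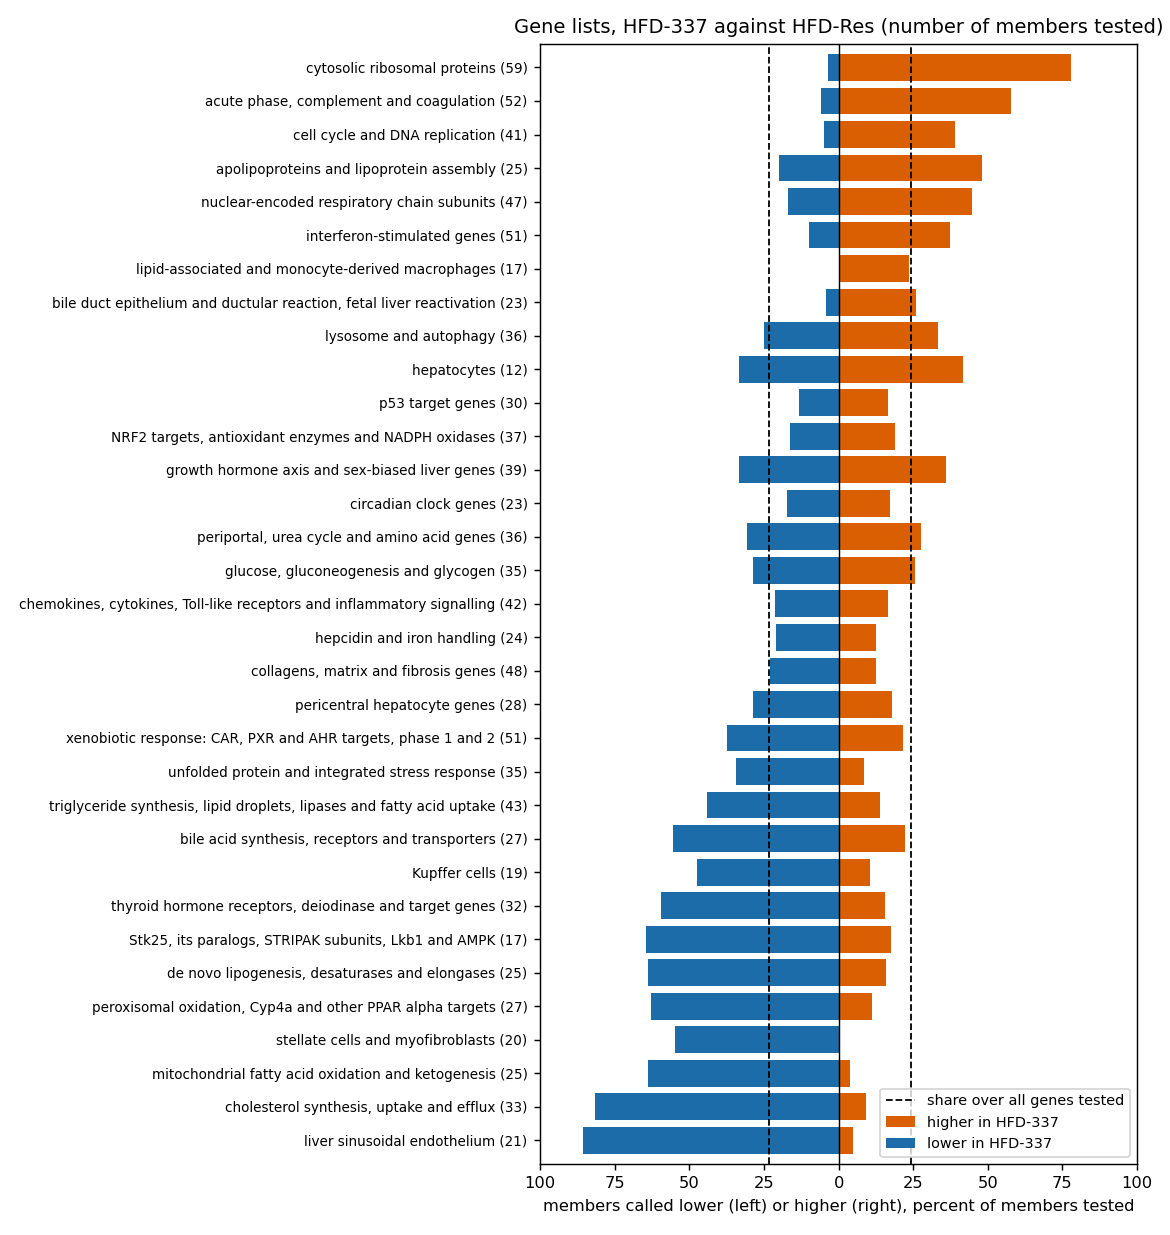
Members of each pathway or cell type list with at least 10 tested genes that were called higher or lower in HFD-337 than in HFD-Res, as a percent of the members tested, with the number tested beside the name. Of the lists drawn, which leave out the split of the sex-biased genes by direction, sinusoidal endothelium and cholesterol genes have the highest lower shares, and ribosomal protein genes the highest higher share.

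Stk25, the gene targeted by the agent (chromosome 1, 93548473 to 93563449 in mm39), was lower in HFD-337. It stood at 19.1, 18.8 and 14.6 CPM in HFD-337, at 46.9, 37.7 and 41.3 in HFD-Res and at 48.6, 43.7 and 47.3 in HFD-NS. Every HFD-337 library was below every other library of these 3 groups, while HFD-Res overlapped HFD-NS. The direct log2 fold change was -1.25 (SE 0.12, q = 1.23e-07), and that of HFD-Res against HFD-NS was -0.15 (q = 0.421). Exons of Farp2 overlap 23.1% of the exon length of Stk25, and reads there count for both genes. Its paralog Stk24 was also lower (11.2, 15.1 and 15.2 CPM against 18.6, 20.2 and 19.9, q = 0.00977), though not with the correction for gene span (q = 0.266) or without HFD-337 replicate 23 (q = 0.0522). Stk26, the other paralog, had too few counts to be tested, with 0 to 1.07 CPM in the 6 libraries.

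In the list of Stk25, its paralogs, subunits of the STRIPAK complex that binds this kinase family, Lkb1 and AMPK, 11 of 17 tested members were lower and 3 higher in HFD-337 (median log2 fold change -0.34, against 0.03 over all genes). Slmap, a STRIPAK subunit, had 50.8, 43.6 and 55.6 CPM in HFD-337 against 87.1, 93.4 and 88.9 in HFD-Res (-0.85, q = 2.64e-06). Prkaa2, a catalytic subunit of AMPK, had 36.2, 39.1 and 61.5 CPM against 72.4, 101 and 87.5 (-0.94, q = 0.000185). The 2 groups did not overlap at either gene, and HFD-Res lay near HFD-NS (80.3, 86.2 and 77.4 for Slmap and 84.2, 80.2 and 70.3 for Prkaa2). Stk11, which encodes the AMPK kinase Lkb1, went the other way, with 90.4, 89.1 and 87.5 CPM against 70.7, 60.03 and 66.3 (q = 0.000465). Against HFD-NS, 3 members were higher and 9 lower in HFD-337. In HFD-Res edgeR called 0 of them against HFD-NS, as did DESeq2 and limma-voom, with 1 at an unadjusted p under 0.05.

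Several direct targets of the thyroid hormone receptors were high in HFD-Res and low in HFD-337. Among the receptors, deiodinase and targets, 19 of 32 tested members were lower in HFD-337 and 5 higher (median -0.75). Me1, malic enzyme, which supplies NADPH for lipid synthesis (chromosome 9, 86463416 to 86577967), had 29.1, 32.6 and 19.5 CPM in HFD-337, 321, 459 and 361 in HFD-Res and 128, 97.1 and 102 in HFD-NS. HFD-Res was above and HFD-337 below HFD-NS in every library. The mean was 14-fold higher in HFD-Res than in HFD-337 (log2 fold change -3.80, SE 0.19, q = 5.1e-10). Both sides contributed, at -1.99 for HFD-337 (q = 3.47e-07) and 1.80 for HFD-Res (q = 1.86e-06) against HFD-NS.

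Dio1, the deiodinase that converts thyroxine to active hormone and a textbook readout of this receptor (chromosome 4, 107148662 to 107164365), had 105, 48.4 and 95 CPM in HFD-337 against 674, 637 and 725 in HFD-Res. HFD-NS lay between them at 143, 142 and 124, and no 2 of the 3 groups overlapped. The mean was 8.21-fold higher in HFD-Res (-3.05, SE 0.28, q = 2.87e-06), with 2.32 (q = 0.000102) against HFD-NS. HFD-337 was called lower than HFD-NS (-0.73, q = 0.0391), but not without its replicate 26 (q = 0.0785) or without any of the 3 HFD-Res libraries (q = 0.0511 to 0.052), nor in fits without the low-count filter (q = 0.0563) or of the 2 groups alone (q = 0.0733). Gpd2, the mitochondrial glycerol phosphate dehydrogenase, showed the same order, with 24.6, 25.5 and 21.1 CPM in HFD-337. HFD-Res had 85.4, 106 and 106 and HFD-NS 50.4, 46.4 and 43.2. Its direct log2 fold change was -2.05 (SE 0.13, q = 6.56e-10). Thrsp, the lipogenic factor Spot14, had 51.2, 51.3 and 45.3 CPM against 361, 233 and 475 (-2.85, q = 0.000114). Here HFD-337 overlapped HFD-NS (94.2, 44.6 and 129), and its own change was not called (q = 0.0806), except with the span correction (q = 0.0217) and with recomputed TPM (q = 0.0412).

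The 2 receptors were called in opposite directions. Thrb, the target of resmetirom, had 31.7, 33.1 and 41.2 CPM in HFD-337 against 56.5, 51.8 and 50.7 in HFD-Res (-0.59, q = 0.000607). The groups did not overlap, yet with the correction for gene span the log2 fold change was -0.01 (q = 0.96). Thra had 38.6, 48.2 and 34.9 CPM against 19.1, 20.2 and 15.7 (1.17, q = 7.61e-06), and 8.25% of its exon length overlaps Nr1d1. 2 carriers of thyroid hormone in blood were also examined, Serpina7 after its values were seen. Serpina7, thyroxine-binding globulin, had 189, 129.8 and 74.3 CPM against 10.1, 15.9 and 39.8, and HFD-NS had 228, 171 and 131. The gap to HFD-Res was 5.97-fold (2.52, q = 0.00101), and HFD-337 was not called against HFD-NS (q = 0.412). Ttr, transthyretin, had 6563, 9392 and 7595 CPM against 3849.7, 3306 and 3806 (1.10, q = 3.45e-06). Klf9 was called lower in HFD-337 (-0.57, q = 0.0109), but with HFD-Res replicate 34 left out its q was 0.0559. Hr, another receptor target, did not pass, at 2.76, 2.54 and 0.609 CPM against 3.43, 4.6 and 1.45 (q = 0.535).

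**Figure D2:**
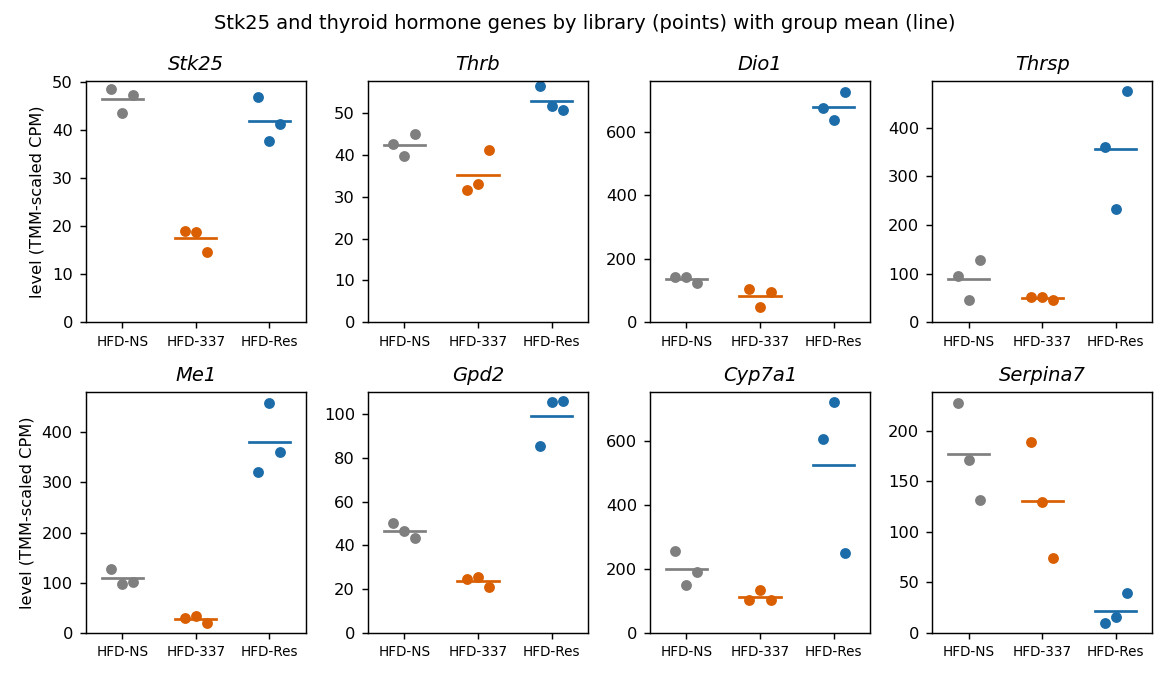
Levels of Stk25 and 7 thyroid hormone genes in each library of HFD-NS, HFD-337 and HFD-Res, in TMM-scaled CPM on linear axes that start at 0, with points for libraries and lines for group means. Stk25 is low in HFD-337 alone, while Dio1, Me1 and Gpd2 lie above HFD-NS in HFD-Res and below it in HFD-337.

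Genes of cholesterol synthesis were low in HFD-337 beside HFD-Res, and their median difference was the largest of the 28 pathway lists. Cells make cholesterol from acetyl-CoA through the mevalonate pathway, and the transcription factor SREBP-2 switches on nearly all of its enzymes together, commonly beside NF-Y, which binds CCAAT boxes. The list of synthesis, uptake and efflux genes had 27 of 33 tested members lower and 3 higher in HFD-337 (median -2.22). The promoters of 3 genes with large differences are shown for the CCAAT boxes that they share. They are the 250 bases before the start of transcription in RefSeq (GRCm38.p6), 5′ to 3′ on the gene's strand, with CCAAT on either strand and TCACNCCAC, the core of the sterol element, in capitals. Hmgcs1 is taken from chr13:119690101-119690350 (plus strand), Idi1 from chr13:8885356-8885605 (plus) and Msmo1 from chr8:64733579-64733828 (minus).
Hmgcs1: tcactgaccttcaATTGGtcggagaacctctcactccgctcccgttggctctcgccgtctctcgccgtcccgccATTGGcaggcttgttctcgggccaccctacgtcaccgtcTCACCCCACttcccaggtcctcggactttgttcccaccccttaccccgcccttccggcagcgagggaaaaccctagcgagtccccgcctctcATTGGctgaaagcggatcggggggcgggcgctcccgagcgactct
Idi1: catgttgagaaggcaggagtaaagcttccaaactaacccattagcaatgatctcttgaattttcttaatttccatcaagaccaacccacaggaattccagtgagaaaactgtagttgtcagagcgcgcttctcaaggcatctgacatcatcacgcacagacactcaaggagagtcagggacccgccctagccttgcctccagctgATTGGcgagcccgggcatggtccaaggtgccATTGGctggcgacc
Msmo1: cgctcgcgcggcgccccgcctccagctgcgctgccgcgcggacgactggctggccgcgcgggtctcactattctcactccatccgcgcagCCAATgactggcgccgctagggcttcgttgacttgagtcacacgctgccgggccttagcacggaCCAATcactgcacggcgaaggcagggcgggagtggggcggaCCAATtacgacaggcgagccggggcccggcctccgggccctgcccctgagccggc
Hmgcs1 holds 3 CCAAT boxes and 1 sterol element, Idi1 2 CCAAT boxes and Msmo1 3. Promoters were found for 23 of the 34 listed genes, in 28 windows, and 18 of the windows (64.3%) hold CCAAT, against 33.8% of 32851 windows of the same length. TCACNCCAC is in 1.05% of all windows and in 1 of the 28, and the 2 motifs do not overlap in letters. A link between these motifs and the differences in level was not tested.

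Hmgcs1, which makes HMG-CoA in the cytosol (chromosome 13, 120151887 to 120169796 in mm39), had 237, 216 and 183 CPM in HFD-337 against 2257, 2767 and 1667 in HFD-Res. HFD-337 overlapped HFD-NS (317, 255 and 173), and HFD-Res was far above both. The mean was 10.5-fold higher in HFD-Res than in HFD-337 (-3.39, SE 0.22, q = 2.84e-08), with -0.23 (q = 0.384) in HFD-337 and 3.17 (q = 1.64e-07) in HFD-Res against HFD-NS.

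Further down the pathway the order was the same. Cyp51, which demethylates lanosterol, had 50.01, 55.7 and 82.6 CPM in HFD-337 against 901, 1038 and 754 in HFD-Res (14.3-fold higher, log2 fold change -3.84, q = 6.23e-07). Msmo1, the sterol C4-methyl oxidase, had 69.1, 99 and 102 CPM against 959, 1085 and 728 (10.3-fold, -3.35, q = 2.76e-09). Idi1, the isopentenyl diphosphate isomerase, had 3.54, 4.15 and 5.07 CPM against 130.2, 217 and 102 (35.2-fold, -5.13, q = 2.02e-07), and 86.3% of its exon length overlaps the pseudogene Idi1-ps1, so its level is uncertain. None of these 3 genes was called in HFD-337 against HFD-NS (q = 0.431, 0.623 and 0.106), and all 3 were called higher in HFD-Res (3.56, 3.47 and 4.28). Idi1 was called lower in HFD-337 than in HFD-NS by DESeq2 (q = 0.0246), with recomputed TPM (q = 0.0451) and without HFD-Res replicate 30 (q = 0.0208). Sqle, squalene epoxidase, had 39.4, 32.2 and 38 CPM against 322, 380.4 and 319.8 (-3.23, q = 1.34e-08). Fdft1, squalene synthase, had 55.3, 64.3 and 52.2 CPM against 385, 483 and 310.3 (-2.77, q = 4.4e-11), with 20.9% of its exon length shared with Ctsb. The regulator Srebf2 itself had 14.4, 17.1 and 15.2 CPM against 46.7, 59.3 and 46.9, with 24.1, 28.9 and 24.8 in HFD-NS. It was called lower in HFD-337 (-0.72, q = 0.000207) and higher in HFD-Res (0.97, q = 1.97e-05) than in HFD-NS.

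Abcg5 and Abcg8, which together pump sterols into bile and were chosen after their values were seen, had 70.9, 75.7 and 51.3 and 49.4, 65.2 and 45.7 CPM in HFD-337 against 197, 148 and 148 and 176, 148 and 151 in HFD-Res (q = 0.000213 and 1.56e-06). Ebp, the sterol isomerase, was an exception and was higher in HFD-337 (333, 357 and 349 CPM against 237, 213 and 223, 0.63, q = 4.76e-05). Scarb1, the HDL receptor, did not pass (86.6, 94.3 and 81.8 against 85, 75.2 and 80.9, q = 0.344), but with the span correction its log2 fold change was 0.34 (q = 0.0163) and with recomputed TPM it was -0.02. Over the list, 25 of 33 members were higher in HFD-Res than in HFD-NS and 2 lower, while in HFD-337 6 were higher and 8 lower.

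**Figure D3:**
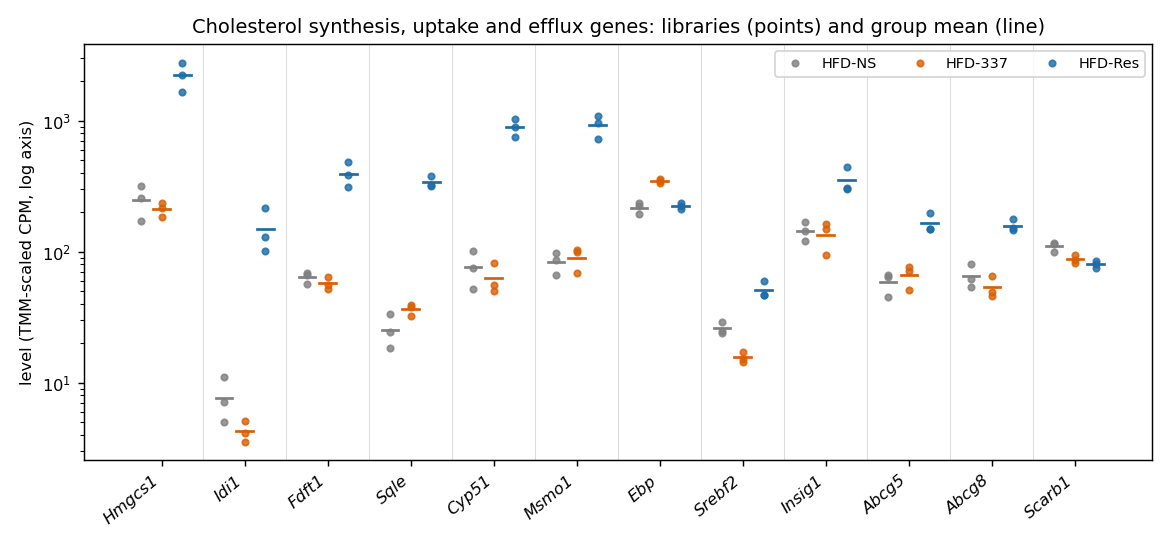
Levels of 12 genes of cholesterol synthesis, uptake and efflux in HFD-NS, HFD-337 and HFD-Res, in TMM-scaled CPM on a log axis, with points for libraries and short lines for group means. HFD-Res lies above the other groups from Hmgcs1 to Msmo1, Ebp is higher in HFD-337, and Scarb1 differs little.

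Most genes of fatty acid synthesis, which turns acetyl-CoA into long-chain fat, were lower in HFD-337 than in HFD-Res. Of 25 tested members of the list with desaturases and elongases, 16 were lower and 4 higher (median -1.08). Fasn, fatty acid synthase (chromosome 11, 120696784 to 120715373), had 69.1, 77.6 and 97 CPM in HFD-337, 255, 388 and 257 in HFD-Res and 86.6, 52.5 and 69 in HFD-NS. HFD-337 lay within the range of HFD-NS or just above it, and HFD-Res was above both (3.69-fold over HFD-337, -1.88, SE 0.19, q = 2.32e-06). Acaca, the carboxylase that commits carbon to the pathway, had 27, 23.9 and 22.3 CPM against 43.2, 67.6 and 44.5 (-1.08, q = 4.63e-05), and Acacb, the form that restrains fat burning, 25.6, 21.7 and 16.8 against 69.4, 80.04 and 92.5 (-1.92, q = 5.54e-07). 

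Pnpla3, a lipid droplet protein whose human variant is linked to fatty liver, had 1.58, 1.27 and 0.609 CPM in HFD-337 against 6.21, 9.89 and 17.9 in HFD-Res. Both are low levels, and the groups did not overlap (-3.28, SE 0.51, q = 5.66e-05). The regulators Mlxipl and Srebf1 went the other way. Mlxipl, the carbohydrate response factor ChREBP, had 534, 492 and 524 CPM in HFD-337 against 257, 273 and 365 in HFD-Res (0.79, q = 6.86e-05), and all HFD-NS libraries were lower than both (228, 187 and 241). Srebf1, the lipogenic SREBP, had 33.5, 46 and 49.9 CPM against 22.5, 25.3 and 22.4 (0.89, q = 0.0225), and its q rose to between 0.0602 and 0.0827 without the low-count filter or without HFD-337 replicate 26 or 27 or HFD-Res replicate 29 or 34. Scd1, the main desaturase, varied widely within HFD-337 (4001, 2839 and 787 CPM against 2514, 3717 and 3884) and did not pass (-0.41, q = 0.586). Against HFD-NS, 14 members were higher in HFD-Res, and in HFD-337 3 were higher and 8 lower.

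Fatty acid oxidation genes were lower in HFD-337, and here the difference lay mostly on the side of HFD-337. Mitochondria burn long-chain fatty acids that enter through carnitine palmitoyltransferase, and the nuclear receptor PPAR alpha induces these genes, those of peroxisomes and Cyp4a. In the mitochondrial list 16 of 25 tested members were lower and 1 higher (median -0.40), and in the list of peroxisomal, Cyp4a and other PPAR alpha targets 17 of 27 were lower and 3 higher (median -0.92). Against HFD-NS, 20 members of the mitochondrial list were lower in HFD-337 and 5 in HFD-Res, and 18 and 6 of the peroxisomal list. Ppara itself had 197, 195 and 151 CPM in HFD-337, 371, 348 and 307 in HFD-Res and 348, 432 and 420.3 in HFD-NS (-0.92, q = 4.5e-06). HFD-337 was below both other groups in every library.

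Cpt1a, the entry enzyme, had 381, 385 and 323 CPM in HFD-337 against 761, 589 and 568 in HFD-Res (-0.82, SE 0.12, q = 1.65e-05). Etfdh, the ubiquinone oxidoreductase of the electron-transferring flavoprotein, had 106, 165 and 122 CPM against 464, 480.5 and 430.1 (-1.80, q = 4.72e-09), and HFD-NS (477, 445 and 426) overlapped HFD-Res. Its partner Etfb was the mitochondrial exception and was higher in HFD-337 (463, 519.7 and 499.7 against 403, 357 and 416, 0.34, q = 0.00744). In peroxisomes, Ehhadh, the bifunctional oxidation enzyme (chromosome 16, 21580035 to 21606584), had 127, 195 and 173 CPM in HFD-337 against 1129, 1045 and 859 in HFD-Res. The mean was 6.12-fold higher in HFD-Res (-2.61, SE 0.16, q = 5.1e-10), with -2.04 for HFD-337 (q = 1.48e-08) and 0.57 for HFD-Res (q = 0.0123, or 0.0633 without HFD-Res replicate 29) against HFD-NS. Abcd2, a peroxisomal importer of fatty acids, had 14.4, 22.8 and 3.25 CPM against 122, 147 and 84.1 (-3.04, q = 0.000215).

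Fgf21, a hormone that the liver secretes in fasting and under PPAR alpha (chromosome 7, 45263314 to 45264914), had 5.71, 2.65 and 0.812 CPM in HFD-337 against 40.2, 94.8 and 69.2 in HFD-Res. HFD-NS had 12.4, 9.44 and 5.48, and its lowest library was just below the highest of HFD-337. The difference was 22.3-fold (-4.49, SE 0.53, q = 3.63e-05). HFD-Res was called higher than HFD-NS (2.91, q = 0.000952), and HFD-337 missed the threshold (-1.58, q = 0.0501), which it passed in 7 of the 13 alternatives (q = 0.0124 to 0.0484): DESeq2, RLE factors, the span correction, recomputed TPM, and without HFD-337 replicate 23 or HFD-Res replicate 29 or 30. Pdk4, which shifts fuel use from glucose to fat, was called lower in HFD-337 (9.65, 7.03 and 3.86 CPM against 21.8, 15.6 and 14.8, q = 0.0415), but its q was between 0.0575 and 0.117 with limma-voom, without the low-count filter or without any of HFD-337 replicates 26 and 27 and the 3 HFD-Res libraries.

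Triglyceride synthesis, lipid droplet and lipase genes were lower in HFD-337 more often than higher, at 19 and 6 of 43 tested (median -0.20). Cd36, a fatty acid importer, had 187, 157 and 73.3 CPM in HFD-337, 432, 379.7 and 352 in HFD-Res and 472, 467 and 362 in HFD-NS (-1.48, q = 0.000325). Mgll, which cleaves monoglycerides, had 198, 178 and 139.8 CPM against 438, 573 and 503 (-1.55, q = 4.85e-08). At both genes every HFD-337 library was below HFD-Res and HFD-NS. Ces3a, a carboxylesterase of hepatic lipid turnover, was higher in HFD-337 (2993, 2765 and 4024 CPM against 768, 822 and 983, 1.93, q = 1.06e-07). Lpl, lipoprotein lipase, was also higher (139, 49.4 and 44.9 against 24.2, 26.7 and 25, q = 0.00606), with HFD-337 replicate 23 far above the other libraries and q = 0.0675 in a fit of the 2 groups alone. Cidec, a droplet fusion protein, did not pass (61.6, 25 and 7.92 against 17.1, 8.97 and 16.3, q = 0.151), except without HFD-337 replicate 27 (q = 0.0212).

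Among apolipoproteins and assembly factors, 12 of 25 were higher and 5 lower in HFD-337 (median 0.24), and 18 of the 25 genes span under 10 kb. With the correction for span, 6 were higher. The small apolipoprotein Apoc1, an inhibitor of lipoprotein uptake, had 7865, 9882 and 8286 CPM in HFD-337 against 3081, 2556 and 3339.8 in HFD-Res (1.54, q = 1.02e-07), with HFD-NS between (4899.6, 4635 and 5700.0). Apob, the large structural protein of VLDL, went the other way, with 2627, 2981 and 3212 CPM against 5673, 6629.5 and 5294 (-1, q = 1.84e-06). Mttp, which loads lipid onto Apob, had 228, 263 and 290.2 CPM against 529.7, 576 and 553 (-1.09, q = 1.17e-07). HFD-337 was below HFD-NS at both (q = 1.44e-07 and 6.31e-05). Angptl8, an inhibitor of lipoprotein lipase, had 60.6, 51.9 and 118 CPM in HFD-337 against 19.5, 24.8 and 28 (1.65, q = 0.00028).

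Bile acids are made from cholesterol and carried by dedicated transporters. Of the 27 tested genes of that list, 15 were lower and 6 higher in HFD-337 (median -0.51). Cyp7a1, the rate-limiting enzyme of bile acid synthesis, had 102, 133 and 102 CPM in HFD-337 against 606, 722 and 249 in HFD-Res. The groups did not overlap, and HFD-Res replicate 34 was well below the other 2 (-2.22, SE 0.49, q = 0.00345). Neither group was called against HFD-NS (255, 149.7 and 189; q = 0.185 for HFD-337 and 0.0833 for HFD-Res), though HFD-Res was called higher by DESeq2 (q = 0.026), limma-voom (q = 0.0227) and without replicate 34 (q = 0.0354). HFD-337 was called lower in the fit of the 2 groups alone (q = 0.0108). Cyp39a1, an oxysterol hydroxylase, had 12.8, 22.8 and 8.73 CPM against 191, 206 and 189 (13.2-fold, -3.66, q = 1.58e-07). Abcc3, which exports bile acids back to blood, was much lower in HFD-Res, with 19.9, 16.1 and 14.7 CPM against 151, 169 and 116 in HFD-337. HFD-NS had 327, 370.4 and 328. Both treated groups were below HFD-NS at Abcc3, and HFD-337 exceeded HFD-Res by 8.59-fold (3.11, q = 1.11e-11). Cyp8b1, which makes cholic acid, did not pass (133, 192 and 109 against 246, 161 and 140.3, q = 0.299), except with the span correction (-0.77, q = 0.0239).

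Genes that differ between male and female mouse liver were among the largest differences. Of 39 tested genes of the growth hormone axis and sex-biased expression, 14 were higher and 13 lower in HFD-337 (median -0.20), and 9 were higher without HFD-337 replicate 27 or HFD-Res replicate 29 or 30. In mice the pulsed growth hormone of males and the steadier hormone of females set these genes, and Cux2 is a female-specific repressor of male genes. The sex-biased genes of this list and others were split by direction after their values had been seen, so their counts are a description. Of 13 female-biased genes tested, 11 were lower in HFD-337 than in HFD-Res (median -6.19), and of 12 male-biased genes 9 were higher (median 3.18). Cux2 (chromosome 5, 121998279 to 122187914) had no count in HFD-337 against 22.7, 23.5 and 12.9 CPM in HFD-Res, with 0, 0.621 and 0.527 in HFD-NS. Against a floor of 3 counts over the HFD-337 group, which covers counting error only, HFD-Res was at least 123-fold higher (q = 4.87e-08). A1bg, a secreted female-biased protein, had 0.394, 0.231 and 0.203 CPM in HFD-337 against 12.6, 53.6 and 20.2 in HFD-Res (-6.64, q = 2.17e-06). Cyp17a1, a steroid hydroxylase, had 7.48, 12.8 and 3.45 CPM against 581, 523 and 602 (71.9-fold, q = 3.34e-08), and HFD-NS lay between at 52, 58.4 and 88.2.

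Several sulfotransferases of the Sult2a family and several Cyp3a and Cyp2a enzymes, which are close copies within each family, followed the female-biased pattern. Their single values are uncertain because reads of copies may be split. Sult2a1 had 0.984, 1.38 and 0.812 CPM in HFD-337 against 368, 340.4 and 254 in HFD-Res (303-fold, q = 2.07e-13). Sult2a3 had no count in HFD-337 against 44.5, 26.7 and 18.9 CPM in HFD-Res, which is at least 187-fold higher against the same floor (q = 4.82e-08). Cyp3a16 had 0.984, 1.15 and 1.01 CPM against 374, 314 and 111 (q = 1.42e-06) and Cyp2a4 6.5, 9.68 and 4.46 against 632, 481 and 471 (q = 8.21e-07). At these 4 genes HFD-NS stayed low, with 3.97, 11.9 and 6.11 CPM for Cyp2a4. Summed over the family, Sult2a genes came to 748 to 1245 CPM in HFD-337, 1508 to 1694 in HFD-Res and 996 to 1290 in HFD-NS. Nearly all of the sum in HFD-337 came from members other than Sult2a1 and Sult2a3. The sum was lower in HFD-337 than in HFD-Res without overlap, the same direction as Sult2a1 and Sult2a3 but by a far smaller margin. The sum of Cyp3a genes overlapped between HFD-337 and HFD-Res (1144 to 2582 against 1392 to 2010). Not every female-biased gene followed. Cyp2b9 did not pass (30.9, 59.7 and 1.01 CPM against 81.6, 60.3 and 146, q = 0.122), though it was called lower with recomputed TPM (q = 0.0334), with limma-voom (q = 0.0422) and without HFD-337 replicate 26 (q = 0.0476).

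On the male-biased side, Hsd3b5, a steroid dehydrogenase of male liver, had 68.7, 42.3 and 390.5 CPM in HFD-337, 1.07, 3.22 and 7.99 in HFD-Res and 2.57, 0.869 and 2.53 in HFD-NS. HFD-337 replicate 27 was far above the other libraries, and the other 2 HFD-337 libraries were still above every library of HFD-Res and HFD-NS (40.8-fold by the means, SE 1.00 on the log2 scale, q = 0.00156). Cyp2d9 had 269, 220.3 and 514 CPM against 37.7, 35.7 and 66.7 (2.82, q = 0.000313), and Cyp4a12a 175, 41.7 and 167 against 2.57, 3.91 and 5.67 (4.90, q = 0.000398). At these 2 genes HFD-Res was below HFD-NS (q = 0.000431 and 0.00356), and HFD-337 was not called (q = 0.244 and 0.449), except at Cyp2d9 without replicate 27 (q = 0.047). Slco1a1, a male-biased organic anion carrier, had 224, 319 and 658 CPM against 20.3, 29.2 and 79.8 (q = 0.018), but its q lay between 0.0549 and 0.0652 without HFD-337 replicate 27 or without HFD-Res replicate 29 or 30. Cish, a suppressor induced by growth hormone signalling, was higher in HFD-337 (54.5, 20.6 and 58 against 13.3, 5.52 and 5.67, 2.44, q = 0.00759). Igf1, the growth factor that growth hormone induces, did not pass (903, 1109 and 1258 against 846, 868 and 831, 0.36, q = 0.0519), except with the span correction (q = 0.00251) or without HFD-337 replicate 23 (q = 0.0132).

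The major urinary proteins, pheromone carriers made in bulk by mouse liver, split in both directions. Their genes are near-identical copies on chromosome 4, so values of single members are uncertain. Mup20 had 10212, 7864 and 23602 CPM in HFD-337 against 772, 922 and 969 in HFD-Res (3.97, q = 0.000153), and Mup21 528, 512 and 1642 against 11.1, 10.3 and 16.7 (6.10, q = 0.00015). Mup9 had 26, 29.7 and 30.4 CPM in HFD-337 against 9054, 8787 and 8603 in HFD-Res (-8.26, q = 3.04e-12), and Mup17 117, 71 and 78.3 against 18402, 19964 and 20292 (-7.79, q = 8.63e-05). HFD-NS had 21.8, 17.6 and 25 CPM of Mup9 and 208, 67.8 and 86.5 of Mup17, far below every HFD-Res library at both genes. The sum over 22 Mup genes was 16350 to 44344 CPM in HFD-337, 60492 to 70419 in HFD-Res and 7071 to 17806 in HFD-NS.

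**Figure D4:**
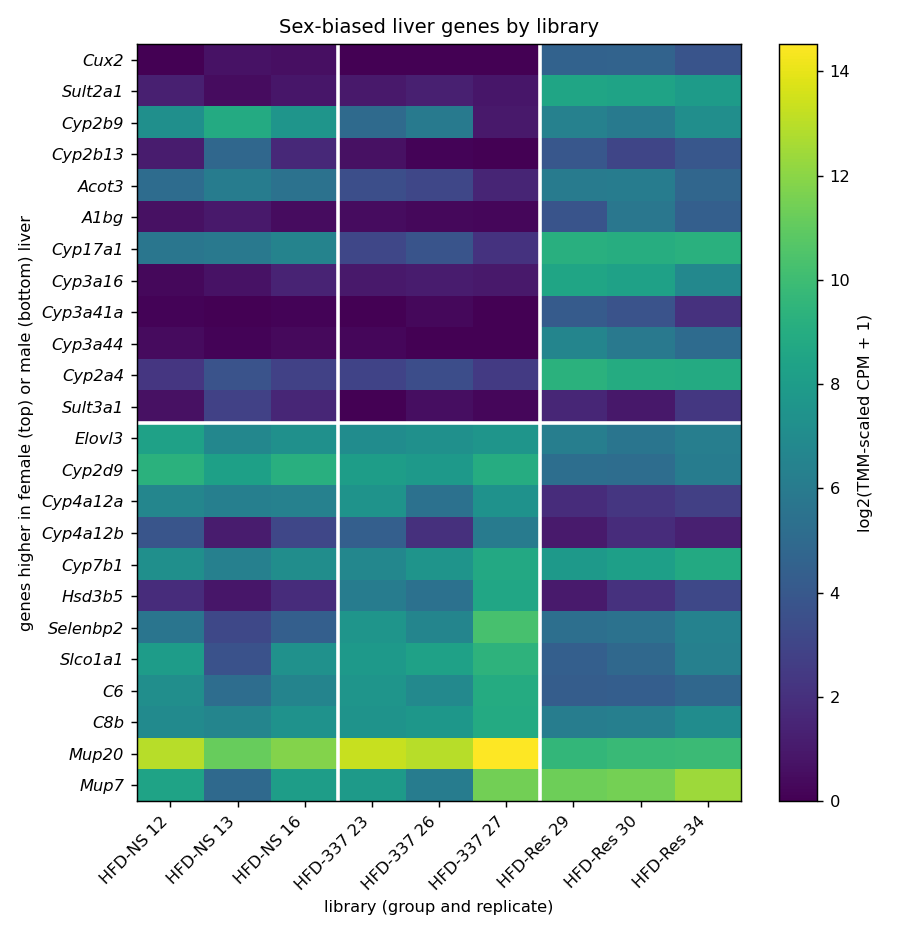
Levels of 12 of the 13 female-biased (top) and 12 male-biased (bottom) liver genes in 9 libraries, as log2 of TMM-scaled CPM plus 1. Cux2, Sult2a1, A1bg, the Cyp3a genes and Cyp2a4 are brightest in HFD-Res, Hsd3b5 is brightest in HFD-337, and Mup20 is dimmest in HFD-Res.

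Among genes of drug metabolism, 19 of 51 tested were lower and 11 higher in HFD-337 (median -0.24). The largest falls were Cyp3a44, Cyp3a16, Cyp3a41a and Cyp2a4, so this list shares members with the female-biased genes above. The genes described next are from the smaller, higher side. Cyp3a11, the main Cyp3a enzyme of mouse liver, had 1299, 1836 and 668 CPM in HFD-337 against 338, 267 and 313 in HFD-Res, with 1939, 1890.1 and 1328 in HFD-NS. It was lower in HFD-Res than in HFD-NS (-2.49, q = 0.000431) and not called in HFD-337 (q = 0.289), and the direct log2 fold change was 2.05 (q = 0.000346). Cyp2c54 had 243, 420.5 and 366 CPM against 56.5, 43.9 and 98.9 (2.35, q = 0.000421). Both belong to families of close copies, so their levels are uncertain. Cyp1a2, which is induced by aryl hydrocarbons and sits around the central vein, had 311, 409 and 499 CPM against 133, 126 and 186 (1.45, q = 2.33e-06).

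Glucose and glycogen genes were called in both directions, 9 higher and 10 lower of 35 in HFD-337, shares near those over all genes. Gbe1, the glycogen branching enzyme (chromosome 16, 70110837 to 70366608), had 12.6, 17.1 and 12.6 CPM in HFD-337, 127, 148 and 146 in HFD-Res and 135, 127 and 149 in HFD-NS. HFD-Res overlapped HFD-NS, and HFD-337 was 9.96-fold below HFD-Res (-3.29, SE 0.13, q = 3.52e-12). Igfbp1, an insulin-repressed binding protein, had 5.91, 13 and 6.29 CPM against 46.5, 79.1 and 93.4 (-3.04, q = 0.000359), and Pgk1, a glycolytic kinase, 16.9, 28.2 and 24.2 against 86.1, 105 and 82.1 (-1.95, q = 5.31e-09). Gckr, the inhibitor of glucokinase, was higher in HFD-337 (332, 359 and 301 CPM against 134, 122 and 118, 1.41, q = 3.61e-08), and HFD-NS lay between (179.9, 166 and 205). The gluconeogenic G6pc and Pck1 did not pass (q = 0.249 and 0.148), and at both the lowest library was HFD-337 replicate 23 (24, 150.4 and 94.4 and 306, 1328 and 1279 CPM against 95.9, 184 and 161 and 1262, 1803 and 1891). With recomputed TPM both were called lower (q = 0.048 and 0.0226), Pck1 also with limma-voom (q = 0.0481), and G6pc also without HFD-337 replicate 26 (q = 0.0429).

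Secreted proteins of the acute phase, coagulation and complement were mostly higher in HFD-337, at 30 of 52 tested with 3 lower (median 0.50). Against HFD-NS, 15 were higher and 10 lower in HFD-337, and in HFD-Res 1 was higher and 13 lower. C8a and C9 are parts of the membrane attack complex. C8a had 1018, 823 and 1336 CPM in HFD-337, 129.5, 119.6 and 217 in HFD-Res and 523, 499 and 508 in HFD-NS (2.76, q = 1.53e-07), and C9 had 880.3, 742 and 1715, 214, 199 and 212 and 402, 369 and 342 (2.42, q = 4.43e-06). At both genes HFD-337 was above and HFD-Res below HFD-NS in every library. C6 showed a wide spread in HFD-337 (190.4, 112 and 485 CPM against 18.4, 19.3 and 27.3, 3.57, q = 0.00131). The acute-phase reactants Orm2 and Saa2, members of families of close copies, and Lcn2 were called higher (89.8, 14.2 and 112, 212, 38.5 and 181 and 201, 26.2 and 73.9 CPM against 8.14, 4.14 and 9.3, 20.3, 8.97 and 25.6 and 13.3, 5.98 and 12.2), but each lost its call in the fit of the 2 groups alone (q = 0.0575, 0.0504 and 0.0576) and when HFD-Res replicate 30 was left out (q = 0.0605, 0.065 and 0.0667). Without HFD-337 replicate 23 the q of Saa2 was 0.0541 and that of Lcn2 0.0877, and the q of Orm2 was 0.0576 without replicate 27 and 0.0649 with limma-voom. Without HFD-Res replicate 34 that of Lcn2 was 0.056. Fgb, the fibrinogen beta chain, did not pass (3934, 3439.8 and 3803 against 3691, 3117 and 4651, q = 0.844).

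Many interferon-stimulated genes, which cells turn on against viruses, were above HFD-NS in both treated groups. Of 51 tested, 38 were higher and 1 lower in HFD-337 and 25 were higher in HFD-Res. Directly, 19 were higher and 5 lower in HFD-337 than in HFD-Res (median 0.38). The share called directly was 47.1%, near the 47.6% over all genes. Isg15, a ubiquitin-like protein, had 75.4, 98 and 69 CPM in HFD-337, 24.2, 19.3 and 42.9 in HFD-Res and 13.4, 15.4 and 13.3 in HFD-NS, and no groups overlapped (1.46, q = 0.000197). Psmb9, an immunoproteasome subunit, had 41.3, 36.7 and 30.4 CPM against 12.6, 8.74 and 14.5 (1.57, q = 2.64e-06), and Tap1, the antigen peptide transporter, 68.7, 64.1 and 68.6 against 19.9, 20.9 and 32.1 (1.44, q = 3.85e-06). Neither was called in HFD-Res against HFD-NS (q = 0.582 and 0.526). The viral RNA sensor Ifih1 went the other way and was highest in HFD-Res (53.4, 70.4 and 59.5 CPM in HFD-337, 90.8, 96.8 and 105 in HFD-Res and 46.9, 50.8 and 42.3 in HFD-NS, -0.67, q = 0.000112).

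Of 42 tested genes of chemokines and inflammatory signalling 7 were called higher and 9 lower in HFD-337, shares below those over all genes. The 9 became 4 without HFD-337 replicate 26 and 5 in the fit of the 2 groups alone. Cxcl1, a neutrophil attractant, had 143, 23.7 and 38.8 CPM in HFD-337 against 7.71, 3.91 and 6.25 in HFD-Res (3.49, q = 0.00354), with the highest value in HFD-337 replicate 23. Of 4 tested neutrophil markers 1 was called, Lcn2. The other 8 listed markers summed to 19.5, 4.5 and 10.6 CPM in HFD-337 against 4.92, 2.76 and 4.94 in HFD-Res, so the groups overlapped, and their part in the Cxcl1 result was not tested. Tlr4, the receptor of lipopolysaccharide, was lower in HFD-337 (2.17, 0.922 and 2.23 CPM against 4.07, 4.6 and 4.5, q = 0.00278). Ccl2, the monocyte attractant, was at most 1.07 CPM in either group and did not differ by the test (q = 0.948), and both groups were below HFD-NS (5.84, 4.97 and 3.16).

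Several lists of markers of cells other than hepatocytes held called differences. Hepatocyte markers were called in both directions, 5 higher and 4 lower of 12 in HFD-337 (75% called, against 47.6% over all genes). In bulk tissue, fewer cells of a type and less RNA per cell cannot be told apart. Of 21 tested markers of sinusoidal endothelium, the lining of liver capillaries, 18 were lower and 1 higher in HFD-337 (median -1.66), and the summed level of 22 markers was 224 to 272 CPM in HFD-337, 523 to 609 in HFD-Res and 516 to 595 in HFD-NS. Lyve1, a hyaluronan receptor, had 4.53, 3.8 and 2.84 CPM in HFD-337 against 24.2, 19.3 and 22.4 in HFD-Res (-2.55, SE 0.23, q = 8.47e-08), and HFD-Res overlapped HFD-NS (23.4, 23.2 and 18.4). Kdr, the main VEGF receptor, had 6.69, 7.95 and 9.74 CPM against 42.8, 56.1 and 41.4 (-2.52, q = 8.54e-06). Bmp2, an endothelial ligand that regulates iron, had 5.51, 4.38 and 7.51 CPM against 30.4, 29.9 and 25 (-2.33, q = 1.68e-07), and HFD-Res was above HFD-NS as well (0.94, q = 0.00196). Stab2, a scavenger receptor of the same cells, was an exception that did not pass (35.2, 19 and 22.3 against 27.8, 31.5 and 27.5, q = 0.577).

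Markers of Kupffer cells, the resident macrophages, were lower for 9 and higher for 2 of 19 tested (median -0.90), and the 9 became 3 without HFD-337 replicate 26 and 4 without HFD-Res replicate 29. Their summed level overlapped between the groups, at 649.6, 460.0 and 907 CPM for HFD-337 against 752, 653 and 636 for HFD-Res. Cd163, a haemoglobin scavenger receptor, had 0.788, 1.27 and 0.609 CPM in HFD-337 against 17.8, 9.89 and 11.9 in HFD-Res (-3.76, q = 0.000363), with 21.2% of its exon length shared with Gm52877. Mrc1, the mannose receptor, had 15.2, 12.2 and 12.6 CPM against 53.1, 57.5 and 41.1 (-1.92, q = 6.72e-06). Clec4f, a lectin of Kupffer cells, had 25, 11.4 and 17 CPM against 82.2, 52.4 and 59.9 (q = 0.0145), but q was 0.0612 without HFD-337 replicate 26. C1qa, which all liver macrophages make, did not pass (25.2, 9.45 and 16.4 against 18.8, 15.2 and 17, q = 0.936). Gpnmb, a marker of lipid-associated macrophages, was higher in HFD-337 (11.2, 4.84 and 8.73 CPM against 0.428, 0.92 and 0.726, 3.49, q = 1.93e-05). HFD-NS had 3.74, 6.83 and 2.95 CPM. Of the 17 tested markers of those macrophages 4 (23.5%) were higher in HFD-337, near the share over all genes, and the 4 became 7 without HFD-337 replicate 26 and 2 without HFD-337 replicate 23 or HFD-Res replicate 30 or 34, and in the fits with limma-voom, of the 2 groups alone and with recomputed TPM. Of 5 tested markers of red blood cells 4 were called higher in HFD-337 (median 1.63), with sums of 844, 363 and 199.7 CPM against 231, 183 and 160.0 in HFD-Res. The sums overlapped and were highest in HFD-337 replicate 23. A single one of these markers was called without any 1 of HFD-337 replicates 23 and 26 and the 3 HFD-Res libraries, and likewise without the low-count filter, in the 2 groups alone and with recomputed TPM.

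Of 20 markers of stellate cells and myofibroblasts, the matrix-making cells, 11 were lower in HFD-337 (median -0.97), with a sum of 243 to 465 CPM against 619 to 681 in HFD-Res. Dcn, decorin, had 117, 81.5 and 59.1 CPM against 271, 270.0 and 244 (-1.61, q = 2.96e-05), and Hgf, the hepatocyte growth factor, 1.38, 1.84 and 0.812 against 5.78, 14.3 and 5.09 (-2.49, q = 0.00199). Of 48 tested genes of collagens, matrix and fibrosis, 6 were higher and 11 lower in HFD-337 (35.4% called, against 47.6% over all genes). Col5a3, a fibrillar collagen, was among the higher ones, with no overlap between the groups. The fibrillar collagens Col1a1 and Col3a1 did not pass: Col1a1 had 37.2, 10.03 and 7.92 CPM against 6.85, 4.83 and 9.44 (q = 0.11) and Col3a1 53.8, 18.8 and 15.2 against 19.1, 23.9 and 18.7 (q = 0.424), each highest in HFD-337 replicate 23. DESeq2 called Col1a1 higher in HFD-337, at the edge of the threshold (1.35, q = 0.05). Without replicate 23 the log2 fold change of Col3a1 was -0.25 (q = 0.605). Sox9, a marker of bile duct cells, was higher in HFD-337 (28.4, 12.7 and 15.6 CPM against 5.78, 7.36 and 4.36, 1.70, q = 0.000175). Of 9 tested bile duct markers, 2 (22.2%) were called higher, near the 24.3% over all genes, and 0 lower. Sums over the 12 listed markers overlapped, with 270, 91.3 and 119 CPM for HFD-337 against 109, 100 and 89.9 for HFD-Res. The highest sum was that of HFD-337 replicate 23.

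Of 41 cell cycle genes, 16 were called higher and 2 lower in HFD-337 (median 0.70). The share called was 43.9%, against 47.6% over all genes. Cdc20 and Ube2c, which drive exit from mitosis, had 6.89, 1.61 and 1.42 and 6.3, 1.61 and 1.22 CPM in HFD-337 against 0.428, 0 and 0.436 and 0.428, 0.23 and 0.436 in HFD-Res (q = 0.00222 and 0.00318), with HFD-337 replicate 23 the highest at both. Only 7 members were higher in the fit of the 2 groups alone. Mki67, the standard proliferation marker, did not pass (14.6, 2.88 and 2.44 against 4.07, 1.84 and 1.74, q = 0.126), except without HFD-337 replicate 26 (q = 0.04). Ccnd1, cyclin D1, which starts the cycle, was lower in HFD-337 (40.4, 36.2 and 15.8 CPM against 205, 177 and 109, -2.39, q = 0.000388), and HFD-Res was above HFD-NS (22.3, 37.7 and 23.8). LTO1 shares 21.7% of the exon length of Ccnd1.

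Of 35 genes of the unfolded protein and integrated stress responses, 12 were lower and 3 higher in HFD-337 (median -0.33). The share called was 42.9%, below the 47.6% over all genes. Psat1, which makes serine, had 0.591, 0.461 and 0 CPM in HFD-337 against 4.28, 11.7 and 9.15 in HFD-Res (-4.43, q = 9.13e-06). Mthfd2, a mitochondrial folate enzyme, had 0.984, 1.04 and 2.44 CPM against 3.64, 8.74 and 5.67 (-2.06, q = 0.00038). For both, HFD-337 was not called against HFD-NS (q = 0.809 and 0.635) and HFD-Res was higher (4.14 and 2.35). Nox4, an oxidase that makes hydrogen peroxide (chromosome 7, 86895857 to 87047916), had 58.5, 69.7 and 107 CPM in HFD-337, 3, 4.14 and 6.68 in HFD-Res and 69.7, 58.9 and 77.7 in HFD-NS. HFD-337 overlapped HFD-NS, and the gap to HFD-Res was 17-fold (4.02, SE 0.31, q = 3.59e-07). Cdkn1a, the cell cycle inhibitor p21, did not pass (21.3, 19.9 and 10.3 against 37.9, 23.2 and 40.1, q = 0.0628), but it was called lower in HFD-337 in 6 of the 13 alternatives: DESeq2 (q = 0.00422), the span correction, limma-voom, the 2 groups alone, recomputed TPM and the fit without HFD-Res replicate 30 (q = 0.0187 to 0.0481).

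Several of the largest differences fell outside these lists. Adrb3, the beta-3 adrenergic receptor (chromosome 8, 27715804 to 27719616), had 94.5, 68.9 and 92.1 CPM in HFD-337, 1.28, 1.38 and 3.2 in HFD-Res and 7.36, 6.58 and 11 in HFD-NS. It was 43.6-fold higher in HFD-337 than in HFD-Res (5.32, SE 0.27, q = 2.98e-10), and no groups overlapped. Cyp2c23, which makes epoxides of arachidonic acid, had 369.8, 409 and 516 CPM in HFD-337 against 19.7, 15.6 and 17.7 in HFD-Res, with 147, 141 and 189 between them in HFD-NS (4.60, q = 5.55e-12). Prtn3, a neutrophil protease, had 26.2, 1.27 and 8.93 CPM in HFD-337 and no count in HFD-Res, which is at least 64.4-fold higher against the floor of 3 counts over the group (q = 0.00893), and its highest library was again replicate 23. Clec2h, a lectin-like receptor, had 26.2, 46.6 and 40.6 CPM in HFD-337 against 0.214, 0 and 0.291 in HFD-Res (q = 5e-06). Cfd, the complement factor made by adipocytes, had 29.3, 10.03 and 5.28 CPM against 0.428, 0 and 0 (q = 0.000341), with 9.57, 5.59 and 14.8 in HFD-NS. The other 5 adipocyte markers summed to at most 0.231 CPM in any HFD-337 library and at most 0.214 in any HFD-Res library. On the low side, Dnah11, an axonemal dynein, had 0.591, 0 and 0 CPM in HFD-337 against 19.3, 29.4 and 18.3 in HFD-Res (q = 1.28e-08), and Wfdc16 0.197, 0 and 0 against 15.2, 14.5 and 9.01 (q = 3.67e-08). The HFD-337 libraries together held at most 3 counts of Dnah11 or of Wfdc16, and the HFD-Res libraries at most 3 of Clec2h or of Cfd, so no ratio is given for these genes.

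Calls moved with the length of the gene in the genome. Of 3558 tested genes spanning under 10 kb, 38.3% were higher and 11.4% lower in HFD-337 than in HFD-Res. Of 539 genes spanning 200 kb or more, 6.12% were higher and 47.1% lower. The same lean was present in HFD-337 against HFD-NS, at 6.31% higher and 46.4% lower for the longest genes, and HFD-Res against HFD-NS had 5.57% and 7.24%. All 59 tested cytosolic ribosomal protein genes span under 10 kb, and 46 of them were higher and 2 lower in HFD-337 (median 0.74). Rplp1, of the ribosomal stalk, had 383, 336 and 415 CPM in HFD-337, 126, 132 and 139 in HFD-Res and 139.5, 124 and 149 in HFD-NS (1.51, q = 2.7e-09). Rps4x was lower (110.1, 140.3 and 149 against 184, 183 and 201, q = 0.000794). Of 47 respiratory chain genes, 32 of which span under 10 kb, 21 were higher and 8 lower, and 13 were higher without HFD-Res replicate 30. Uqcrq, a small subunit of complex III, had 568, 524 and 489.9 CPM against 232, 209.5 and 252 (1.19, q = 1.08e-07), while Atp5b, the catalytic subunit of ATP synthase, had 554, 615 and 606 against 982, 978 and 998 (-0.74, q = 2.27e-06). With the correction for span, 33 ribosomal protein genes and 15 respiratory chain genes were called higher. The part of gene length in these counts beyond the correction for span was not tested.

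**Figure D5:**
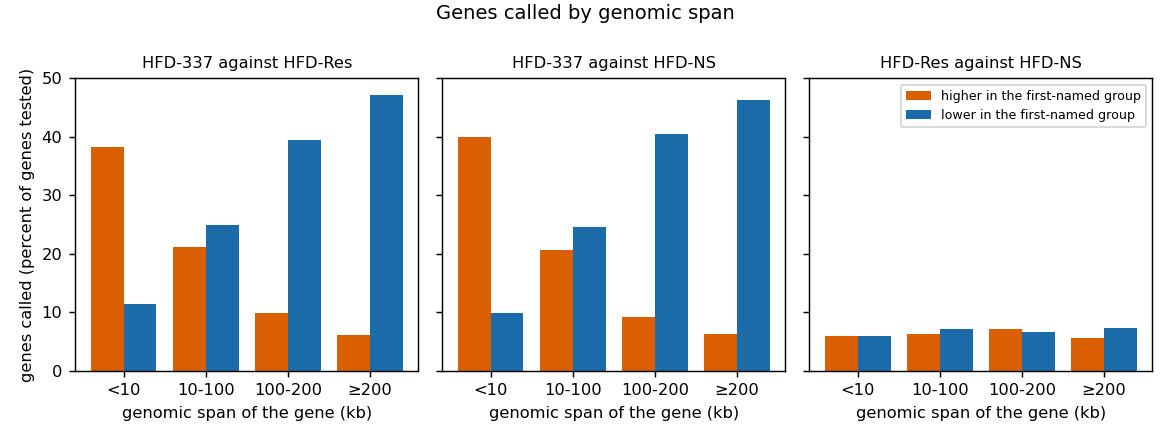
Percent of tested genes called higher and lower in 4 classes of genomic span in kb, for HFD-337 against HFD-Res, HFD-337 against HFD-NS and HFD-Res against HFD-NS. Both comparisons with HFD-337 run from mostly higher under 10 kb to mostly lower at 200 kb and over, and the panel without HFD-337 is nearly even.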

How the data were processed

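RNA of mouse liver was extracted with TRIzol and selected by poly(A), per the labels' protocols. Reads were counted with featureCounts 2.0.1, per the submitters' processing notes, which also list STAR 2.7.10b, Bowtie 1.3.1 (its role is not given in the sources used here) and the trimmer Trim Galore 0.6.10. The deposited counts are read counts per gene on mm39, counted over exons without strand and with reads shared by overlapping genes given to each, per the file headers. TPM columns in the deposited files were not used. The count table held 26264 genes, 6882 of them without a count, and libraries of 3873903 to 9797743 counts.

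All 15 libraries were fitted together in edgeR 4.0.16 (R 4.3.3) after filterByExpr and TMM, with the robust quasi-likelihood test, and 13189 genes were tested. Adjustment followed Benjamini and Hochberg over all of them, with a threshold of 0.05. A standard error is the log2 fold change over the square root of F. The scripts were tested on simulated data. The 13 alternatives were DESeq2 1.42.0, RLE factors, no low-count filter, limma-voom with quality weights (limma 3.58.1), the 2 groups alone, limma on log2(TPM + 1) recomputed from the counts, loess offsets for genomic span, and each of 6 libraries left out. No libraries were duplicates by a chi-square check.

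Named genes were the 15 with the largest called change in each direction at a mean of at least 1 CPM, up to 4 per list and direction, a fixed set of textbook genes, and uncalled list members. Sqle, Fdft1, Srebf2, Insig1, Abcg5, Abcg8, C8a, C9, Cish, Serpina7, Mttp and Cyp2d9 were chosen, where outside that rule, after their values were seen. A few genes that this rule takes in are not reported here, though list counts include them. Members and lists were chosen with earlier results of these data known.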

Additional observations from a re-analysis of the deposited data

Results flagged for a closer look

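In 22 genes named above, HFD-337 and HFD-Res were called in opposite directions against HFD-NS and differed in the direct contrast. This is a description, because many of the genes were named for their direct difference and such genes were not counted over all genes tested. Both calls share the HFD-NS libraries, and opposite calls make a direct difference likely. The HFD-337 call of Dio1 and the HFD-Res call of Ehhadh were lost in alternatives given above. Only 23 named genes were followed through the alternatives against HFD-NS, 10 of them called in HFD-337. For genes of this list outside those 23, the calls against HFD-NS were not checked in the alternatives. The values are log2 fold changes of HFD-337 against HFD-Res, with edgeR's adjusted p under 0.05 for each. Above HFD-NS in HFD-Res and below it in HFD-337 were the receptor targets Me1 (-3.80), Dio1 (-3.05) and Gpd2 (-2.05), the lipid genes Acacb (-1.92), Ehhadh (-2.61), Mgll (-1.55), Mttp (-1.09) and Srebf2 (-1.70), the sterol and steroid enzymes Cyp39a1 (-3.66) and Cyp17a1 (-6.07), and the endothelial ligand Bmp2 (-2.33).

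In the opposite order were Adrb3 (5.32), Apoc1 (1.54), C8a (2.76), C9 (2.42), Ces3a (1.93), Cyp1a2 (1.45), Cyp2c23 (4.60), Cyp2c54 (2.35), Gckr (1.41), Gpnmb (3.49) and Mup20 (3.97), the last from a family of close copies.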

How the results depend on the processing

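No paired analysis was possible because HFD-337 and HFD-Res share no replicate numbers. Of 13 alternatives, those that leave out a library gave 2717 to 2982 genes higher and 2675 to 2992 lower in HFD-337. Recomputed TPM gave 645 genes higher by 2-fold or more, 8 cell cycle genes higher, and 53 and 18 genes higher in the span classes of 100 to 200 kb and of 200 kb and over. The fit of the 2 groups alone gave 7 cell cycle genes higher. Offsets for gene span, which by construction remove the trend with span, gave 6 apolipoprotein genes higher, 788 higher and 718 lower under 10 kb, 225 and 213 at 100 to 200 kb, and 104 and 107 at 200 kb and over. Leaving out libraries gave 13 to 23 respiratory chain genes higher, lowest without HFD-Res replicate 30, and 3 to 10 Kupffer cell genes lower, lowest without HFD-337 replicate 26 and at 4 without HFD-Res replicate 29; the cause was not tested.

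No called gene followed through the alternatives changed sign, in the direct contrast or among the 23 genes followed against HFD-NS. Uncalled log2 fold changes that did so were, with a library left out, C1qa (-0.45 to 0.29), Ccl2 (-0.19 to 0.22), Col3a1 (-0.25 to 0.75) and Fgb (-0.17 to 0.13), and against HFD-NS in HFD-337 Mthfd2 (-0.20 to 0.55) and Psat1 (-0.63 to 0.13). With span offsets Ccl2 was at -0.38 and Stab2 at 0.20, and with recomputed TPM Scarb1 was at -0.018 and Msmo1 in HFD-337 against HFD-NS at -0.036. Library totals and 3 libraries a group limit what could be detected among genes of low level.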

Other observations

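Single genes of the circadian clock, urea cycle, iron and lysosome lists held further called differences. Of 36 periportal, urea cycle and amino acid genes, 10 were higher and 11 lower in HFD-337 (58.3% called, against 47.6% over all genes). Of 24 iron genes, 3 were higher and 5 lower (33.3%). Of 36 lysosome and autophagy genes, 12 were higher and 9 lower (58.3%), and 6 were higher with recomputed TPM. The clock repressor Bhlhe41 had 6.3, 3.11 and 5.07 CPM in HFD-337, 0.214, 0 and 0.436 in HFD-Res and 1.52, 2.11 and 4.85 in HFD-NS, and was lower in HFD-Res than in either group (q = 4.05e-05 against HFD-337). Per2, a core clock gene, had 58.5, 56.6 and 81.2 CPM against 32.8, 31.3 and 41.8 (0.87, q = 0.000531), and Cry1, its partner, 3.15, 5.07 and 4.67 against 9.21, 9.89 and 12.3 (-1.27, q = 0.000764). In the clock list as a whole 4 of 23 genes were higher and 4 lower, below the share over all genes. The hour of collection is not given in the sources used here.

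Cps1, the first enzyme of the urea cycle, had 630.1, 1497 and 1202 CPM in HFD-337 against 3025, 2784 and 2328 in HFD-Res (-1.29, q = 0.000619), while Hal, which degrades histidine, was higher in HFD-337 (109, 256 and 188 against 76, 78.4 and 59.6, 1.38, q = 0.00285). Slc40a1, the iron exporter ferroportin, had 111, 102 and 97.4 CPM against 229, 219.7 and 195 (-1.05, q = 4.38e-06), and Hamp, its ligand hepcidin, did not pass (449, 1058 and 1099 against 1053, 1248 and 1087, q = 0.515). Psap, the precursor of lysosomal saposins, had 157, 179 and 169 CPM against 449, 455 and 456 (-1.43, q = 1.02e-08), with no overlap between the groups. More genes of its list were called higher than lower.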
